A study of Drosophila melanogaster with 3 samples.

Results

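Summits at bidirectional promoters are peak summits of the NfI binding profile that lie close to the transcription start sites (TSSs) of genes read in opposite directions. They were chosen from the optimal peak list, as summits with a protein-coding TSS within 500 bp on the plus strand and another within 500 bp on the minus strand, from different genes. The rule used gene positions and no measured level. It took 1030 of the 5806 summits (17.7%, exact 95% interval 16.8 to 18.7). Another 1940 summits had protein-coding TSSs within 500 bp on 1 strand only and serve below as the one-strand promoter summits. The remaining 2836 had none.

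The profile came from chromatin immunoprecipitation sequencing (ChIP-seq) of whole embryos of both sexes, collected at 12 to 24 h, from a Drosophila melanogaster line carrying an NfI transgene with green fluorescent protein at the C terminus. There were 3 biological replicates, numbered 2, 3 and 4, of 1 group, with no untagged or mutant group. All embryos carried the tagged NfI and came from 1 transgenic line, and whole embryos pool every cell type. The text label of each library calls it an input control, while its assay title and antibody label name an NfI ChIP, and the libraries were taken as ChIP here. A separate age label gives a number of hours far beyond embryonic life, in conflict with 12 to 24 h, and was set aside. The number of reads per library is unknown.

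In the compact fly genome many housekeeping genes share a promoter region with a neighbour transcribed the other way. Such promoters often lack the strong focused elements of developmental genes and carry instead short elements bound by DREF, BEAF-32 and M1BP. NfI is the only nuclear factor I protein of the fly, and the vertebrate proteins of the family bind the palindrome TTGGC and GCCAA 5 bases apart and, more weakly, a single TTGGC arm.

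The layout of these promoters is shown by the stretches of RefSeq Release 6 sequence (coordinates of dm6, plus strand, 5′ to 3′) that lie between the TSSs of strongly bound pairs and overlap no annotated transcript. In each, the gene named first starts at the left end and is transcribed leftwards, and the gene named second starts at the right end and is transcribed rightwards. Capitals mark TATCGATA, the DRE (DNA replication-related element, bound by DREF and, through its CGATA core, by BEAF-32), the overlapping 7-mer CTATCGA, and GGTCACACT, the core promoter element Motif 1 bound by M1BP, on either strand. The first 4 are the strongest pairs with a stretch of 30 to 300 bases on the printed arms. They lay at 3R:15229409-15229664, 3L:5139396-5139618, 2L:8376798-8377034 and 3R:25247515-25247657.
Art3 and mRpS10: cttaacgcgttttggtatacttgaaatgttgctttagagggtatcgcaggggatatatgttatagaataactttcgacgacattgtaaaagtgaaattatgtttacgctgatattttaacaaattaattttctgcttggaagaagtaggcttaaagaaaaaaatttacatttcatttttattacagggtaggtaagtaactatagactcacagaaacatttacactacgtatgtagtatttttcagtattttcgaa
Tcs5 and CHMP2B: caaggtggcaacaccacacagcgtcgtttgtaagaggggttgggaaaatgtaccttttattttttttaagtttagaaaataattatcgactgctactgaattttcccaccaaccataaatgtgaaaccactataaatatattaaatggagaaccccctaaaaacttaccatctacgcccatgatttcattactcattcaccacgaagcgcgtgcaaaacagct
CG13390 and CG17294: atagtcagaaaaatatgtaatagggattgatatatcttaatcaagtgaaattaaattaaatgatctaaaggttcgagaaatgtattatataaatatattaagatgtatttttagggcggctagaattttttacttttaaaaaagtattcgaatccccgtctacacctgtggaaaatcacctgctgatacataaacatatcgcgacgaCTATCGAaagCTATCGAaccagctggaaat
RpS27 and Nup37: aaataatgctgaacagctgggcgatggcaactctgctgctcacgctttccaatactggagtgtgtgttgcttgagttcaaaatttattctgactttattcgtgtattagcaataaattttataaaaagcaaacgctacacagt

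None of these 4 stretches held TATCGATA or GGTCACACT, and that of CG13390 and CG17294 held CTATCGA at 2 places. The next 3 are the strongest whose stretch held TATCGATA. They lay at 3L:9426759-9427009, 2L:17481030-17481230 and 3R:11216288-11216534.
Atat and Shc: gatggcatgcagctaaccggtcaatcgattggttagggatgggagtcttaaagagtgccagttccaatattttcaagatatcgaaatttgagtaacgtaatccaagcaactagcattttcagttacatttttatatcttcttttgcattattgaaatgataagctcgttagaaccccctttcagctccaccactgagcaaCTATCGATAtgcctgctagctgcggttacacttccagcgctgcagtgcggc
fws and Lamtor3: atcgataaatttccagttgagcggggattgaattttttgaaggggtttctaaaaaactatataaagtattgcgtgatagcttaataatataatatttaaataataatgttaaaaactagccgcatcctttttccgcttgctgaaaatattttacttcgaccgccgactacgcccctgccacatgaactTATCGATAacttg
RpS25 and CG4820: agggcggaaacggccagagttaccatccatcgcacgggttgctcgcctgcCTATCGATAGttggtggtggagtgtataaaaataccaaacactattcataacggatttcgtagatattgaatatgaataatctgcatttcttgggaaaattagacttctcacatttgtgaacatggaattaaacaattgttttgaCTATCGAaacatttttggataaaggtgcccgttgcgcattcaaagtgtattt

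The last 2 stretches are the strongest with GGTCACACT, at 2L:419653-419951 and 3R:23767489-23767711. In the stretch of CG13690 and RpLP1 the element stood close to the right end, where RpLP1 starts. In that of CG10214 and CG10375 it stood close to the left end, where CG10214 starts.
CG13690 and RpLP1: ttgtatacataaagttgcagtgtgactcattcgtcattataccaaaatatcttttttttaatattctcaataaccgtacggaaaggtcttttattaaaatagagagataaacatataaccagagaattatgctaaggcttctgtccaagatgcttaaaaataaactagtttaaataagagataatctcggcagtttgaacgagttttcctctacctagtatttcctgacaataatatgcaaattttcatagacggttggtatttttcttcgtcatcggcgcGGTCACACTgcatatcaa
CG10214 and CG10375: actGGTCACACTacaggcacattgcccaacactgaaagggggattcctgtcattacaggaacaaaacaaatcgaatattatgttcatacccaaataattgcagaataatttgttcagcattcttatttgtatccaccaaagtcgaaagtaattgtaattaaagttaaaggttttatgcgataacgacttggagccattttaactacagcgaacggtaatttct

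The binding at these stretches was read as a relative signal, which is the deposited signal of the strongest overlapping peak among the 5806 strongest of a replicate, divided by the median of those 5806. At Art3, a protein arginine methyltransferase gene, and mRpS10, a mitochondrial ribosomal protein gene, the relative signal was 13.9, 14.5 and 13.1 in replicates 2, 3 and 4. At Tcs5, which encodes a subunit of a tRNA-modifying complex, and CHMP2B, a subunit of the membrane-remodelling ESCRT-III complex, it was 10.9, 13.2 and 16.1. Both pairs stood above 10 in every replicate, and their order was not resolved between replicates. At Atat, a tubulin acetyltransferase gene, and Shc, a signalling adaptor gene, it was 6.87, 7.18 and 10.6. At fws, a subunit of the Golgi COG complex, and Lamtor3, a lysosomal signalling scaffold, it was 5.67, 7.46 and 8.83, and at the ribosomal protein gene RpS25 and CG4820 it was 4.12, 4.19 and 5.67. The 2 printed pairs with GGTCACACT in the stretch were lower. Elsewhere the motif also stood within 100 bp of a stronger summit, as at RpL7 and Ripalpha (5.86, 6.58 and 11.1). At CG13690 and RpLP1, an acidic ribosomal protein gene, the relative signal was 2.17, 1.64 and 2.03, and at CG10214 and CG10375 it was 1.31, 1.33 and 1.53.

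The 15 strongest members ranged in mean relative signal from 8.40 to 13.8. The second was the summit between mRpS23, another mitochondrial ribosomal protein gene, and CenG1A, an Arf GTPase-activating protein gene, with 9.66, 15.6 and 15.8 in replicates 2, 3 and 4. It was followed by Tcs5 with CHMP2B and by Fbw5, an F-box gene, with CG9147, at 11.4, 12.4 and 12.9. Chro, which encodes a chromatin protein of interbands and the spindle, and Ssl1, a subunit of the general factor TFIIH, had 8.17, 12.7 and 14.5. CG5611 with Mtl had 10.9, 11.8 and 11.0. Replicate 2 gave the lowest value at each of these pairs, by a wide margin at mRpS23 and at Chro and by little at CG5611.

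CG13390 with CG17294 (13.4, 10.5 and 8.79) and Pdrg1 with Pal1, a peptide-amidating lyase gene (13.2, 9.45 and 9.70), were instead highest in replicate 2. RpS27, a cytosolic ribosomal protein gene, with the nuclear pore gene Nup37 had 9.57, 8.31 and 14.5. The widest spread among the 15 was at tank and CG12194, with 4.27, 11.8 and 15.5. The list ended with mRpL23 and CG9004 (9.39 ± 1.14), CG5757 and CG5098 (8.90 ± 3.66), CG11309 and CG7632 (8.82 ± 0.973), Pex11ab, a peroxisome division gene, and CG8320 (8.58 ± 2.65), and the mitochondrial protease gene Lon with the GPI-anchor synthesis gene PIG-F (8.40 ± 1.82, SD, n = 3 each). These SDs overlap, so the order among them is not resolved. Of the 100 strongest optimal peaks, 27 were at bidirectional promoters and 40 were one-strand promoter peaks, against 17.7% and 33.4% of all optimal peaks.

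**Figure D1:**
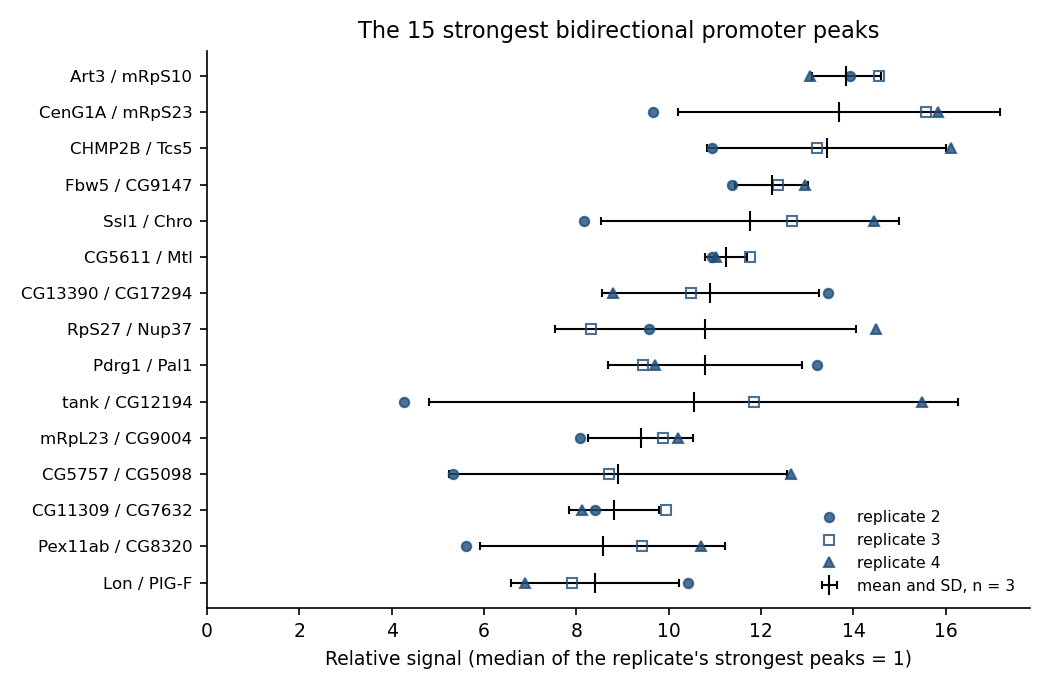
Relative signal (x axis, no unit; the median of a replicate's 5806 strongest peaks is 1) of the 15 strongest peaks at bidirectional promoters, by gene pair; symbols are the 3 replicates, the bar and whisker their mean and SD. Art3 with mRpS10 leads with 13.8 ± 0.748, and tank with CG12194 has the widest spread, from 4.27 to 15.5.

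The 1030 summits fell on 961 gene pairs, each named by the nearest TSS on each strand, and 1983 genes had a TSS within 500 bp of a member. In 892 pairs there was 1 summit and in 69 pairs there were 2. Most members, 973, had exactly 2 genes within 500 bp, 51 had 3 and 6 had more. In 1009 members (98.0%) the TSSs faced apart with a gap between them, and in 21 the transcripts overlapped. The gap had a median of 287 bp (quartiles 199 and 381) and ran from 1 to 856 bp.

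Members made up 18.3 to 20.6% of the optimal summits on each large autosomal arm (202 on 2L, 197 on 2R, 220 on 3L and 283 on 3R). The X chromosome held 127 members of 1047 summits (12.1%), and chromosome 4 held 1 of 15. Across the 6 arms, 1.25% of bases would satisfy the rule, so members were 14.2 times as dense as evenly spread summits would be, against 3.28 times for one-strand promoter summits. The same rule on the 5806 strongest peaks of each replicate took 1235, 765 and 828 summits in replicates 2, 3 and 4, a density of 13.0 ± 3.51 times the even spread, against 3.15 ± 0.415 times for one-strand summits (SD, n = 3). Replicate 2 was the highest in both classes, with 21.3% of its summits at bidirectional promoters, against 13.2% and 14.3% in replicates 3 and 4, and the part of this difference between libraries in the results below was not tested.

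At the limit of the rule, the members just inside were at CG42613 and Mpc1, a mitochondrial pyruvate carrier gene, with the farther TSS 499 bp away, and at Snx21 and aph-1, a gamma-secretase subunit gene, at 497 bp. Just outside were slim and Ttd14 (501 bp) and Pka-C1, a protein kinase A catalytic subunit gene, with hoip (502 bp). Their pooled signals were 619.5 and 885.7 inside, and 267.1 and 255.9 outside. The medians were 374.9 over all members and 302.1 over one-strand promoter summits. With 2 summits on each side, no change of signal at the limit can be read from these values. There were 45 summits with the farther TSS 451 to 500 bp away and 38 at 501 to 550 bp.

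Summits lay between the TSSs of the pair rather than inside either gene. Of the 1009 members with a gap, 833 (82.6%, exact 95% interval 80.1 to 84.9) had the summit in it, although the gaps made up only 44.6% of the positions that the rule allowed at these members. The shares in replicates 2, 3 and 4 were 82.3%, 81.9% and 85.1% (83.1% ± 1.73, SD, n = 3). The summit lay in the gap in 40.7% of members with gaps of 1 to 100 bp, 70.2% at 101 to 200 bp, 88.7% at 201 to 300 bp and 92.9% at 301 to 400 bp. The allowed positions within the gap rose over the same bins as 6.43%, 17.0%, 34.3% and 53.0%.

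Within the gap, the summit stood a median of 79 bp upstream of the nearer TSS (quartiles 44 and 118) and 214 bp upstream of the farther one (quartiles 148 and 305). It was within 50 bp of the midpoint in 376 of the 833 members (45.1%). In gaps of 201 to 300 bp the median distance to the nearer TSS was 86 bp and 59.2% of summits were within 50 bp of the midpoint. In gaps of 301 to 400 bp the median was 85 bp and 26.5% were near the midpoint. The median distance to the nearer TSS was 102 bp in gaps of 401 to 500 bp and 164 bp in gaps over 500 bp, with 18.9% and 17.4% of summits near the midpoint. The nearer TSS was that of the plus-strand gene in 453 members and of the minus-strand gene in 380. Members lay upstream of their nearest TSS in 82.8% of cases, against 81.3% of one-strand promoter summits. The shorter distances of members follow in part from their having TSSs on either side.

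**Figure D2:**
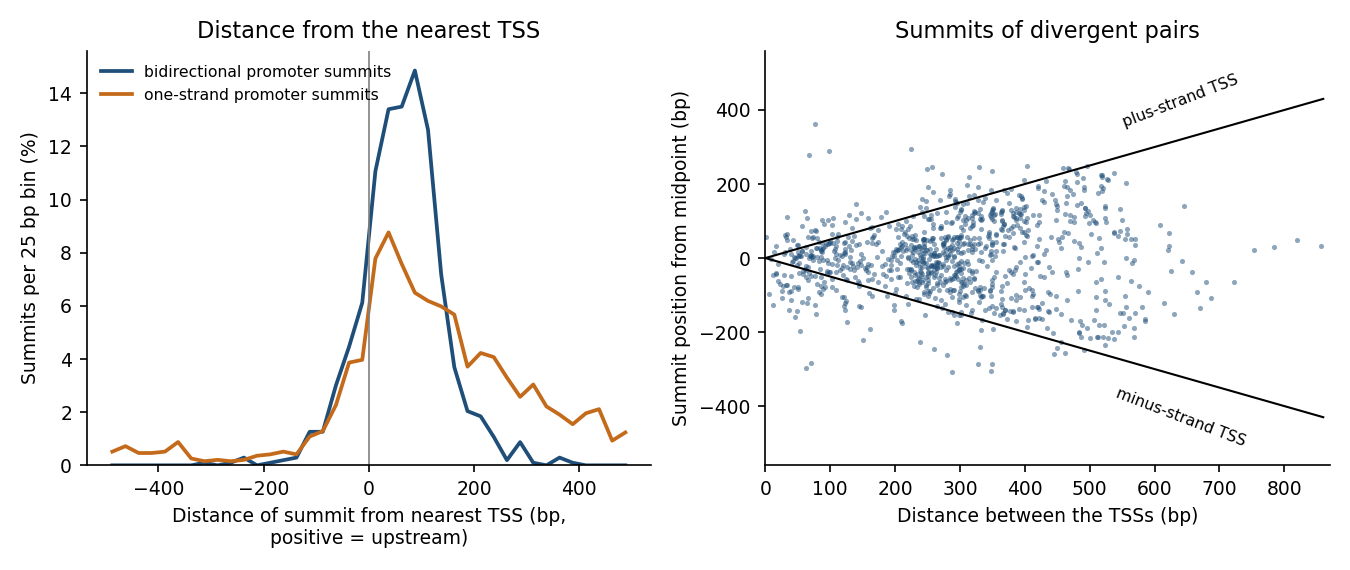
Left, percentage of summits per 25 bp bin (y axis) by distance from the nearest TSS in bp (x axis, positive upstream) for bidirectional and one-strand promoter summits. Right, position of each of the 1009 summits of divergent pairs from the midpoint between the TSSs in bp (y axis) against the distance between the TSSs in bp (x axis); the lines are the TSSs, and 833 points lie between them.

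The 69 pairs with 2 summits were spaced by a median of 207 bp, with 199 bp as the smallest and 2453 bp as the largest distance, and in 48 of them both summits lay in the gap. In 61 of the 69 pairs, both optimal peaks overlapped the same peak of a replicate, so most of these are not separate peaks in every list.

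To see which bidirectional promoters were bound, the annotation was searched for all protein-coding gene pairs on opposite strands with TSSs up to 1000 bp apart. Of 2720 such pairs, 1040 (38.2%, exact 95% interval 36.4 to 40.1) had a summit within 500 bp of both TSSs. The shares in replicates 2, 3 and 4 averaged 34.9% ± 7.58 (SD, n = 3). A summit lay within 500 bp of a TSS for 2292 of the 5141 genes of these pairs (44.6%), against 1351 of 8804 (15.3%) for the other protein-coding genes, and 26.1% over all protein-coding genes. In the replicates the shares were 40.9% ± 8.01 for paired genes and 14.8% ± 1.94 for the others (SD, n = 3), and the ranges, 35.0 to 49.99% and 13.6 to 17.0%, did not overlap. A paired gene can also be counted through a summit at its partner, and had 1.47 annotated TSSs on average, against 1.37 for the others.

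Occupancy differed with the distance between the TSSs. It was 41.1% for gaps of 1 to 100 bp and 38.7% for 101 to 200 bp. It was 55.2% for 201 to 300 bp (exact 95% interval 50.8 to 59.5) and 55.6% for 301 to 400 bp (50.5 to 60.6), then 38.1% for 401 to 500 bp and 21.3% for 501 to 700 bp. The stretch in which a summit can meet the rule shrinks as the gap grows, so the fall beyond 400 bp is in part fixed by the rule, while the higher share at 201 to 400 bp runs against that shrinkage. Set together, gaps of 201 to 400 bp were occupied in 511 of 923 pairs and gaps of 1 to 200 bp in 309 of 773, and the share was higher by 15.9, 13.8 and 9.88 percentage points in replicates 2, 3 and 4. These bins were joined after their values were seen, so no test is given.

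**Figure D3:**
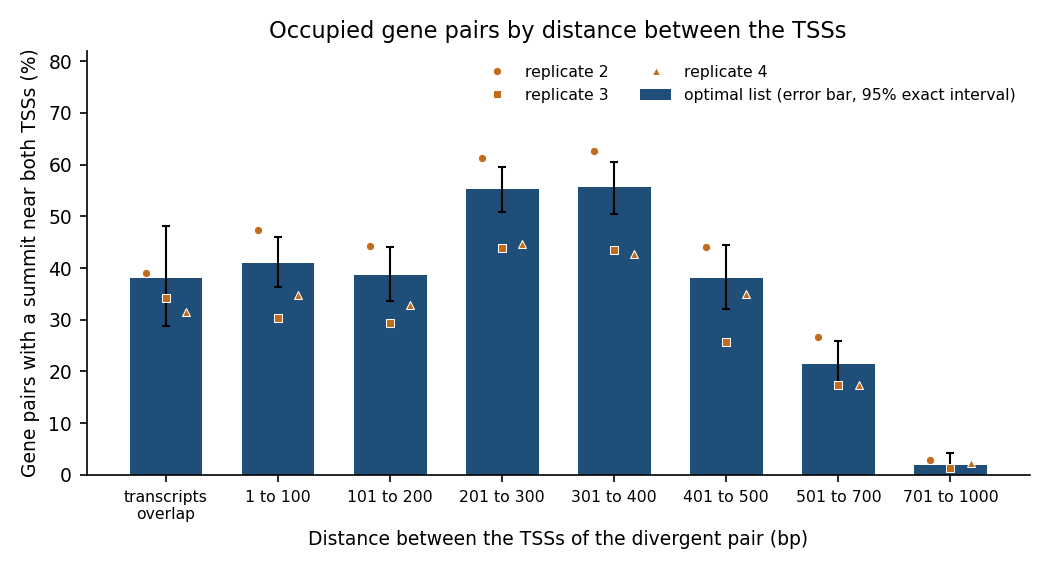
Percentage of annotated opposite-strand gene pairs with a summit within 500 bp of both TSSs (y axis) by the distance between the TSSs in bp (x axis). Bars are the optimal list with exact 95% intervals and symbols the 5806 strongest peaks of each replicate; the bars at 201 to 300 and 301 to 400 bp reach 55.2% and 55.6%, and in every replicate these are the highest bins.

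Peaks at bidirectional promoters had a median relative signal of 1.51, 0.955 and 1.07 in replicates 2, 3 and 4, against 1.08, 0.934 and 0.949 for one-strand promoter peaks, with peaks not matched in a replicate counted as lowest. The difference was 0.434, 0.0202 and 0.121 (0.192 ± 0.216, SD, n = 3), positive in 3 of 3 replicates, with an exact 2-sided sign-flip permutation p of 0.25, the smallest that 3 replicates allow. Against the one-strand summits upstream of their TSS alone, a comparison chosen after the data were seen, it was 0.361, -0.0494 and 0.0778 (exact p = 0.50). The largest difference was thus that of replicate 2, the library richest in members.

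Matches among the strongest peaks also differed by library. Of the 1030 members, 93.9% were matched in replicate 2, 73.0% in replicate 3 and 76.1% in replicate 4, against 86.6%, 77.8% and 74.5% of one-strand promoter peaks. In all 3 replicates 605 members (58.7%) were matched, against 1106 of 1940 one-strand peaks (57.0%) and 55.3% of all optimal peaks. The odds ratio of 1.07 was not past the threshold (2-sided Fisher's exact test, p = 0.488 adjusted over 3 comparisons). Without replicate 3 the odds ratio was 1.41 (exact p = 4.15e-05), without replicate 2 it was 0.882 (exact p = 0.119) and without replicate 4 it was 1.06. It was 1.24 with a TSS limit of 250 bp (exact p = 0.0223), 0.799 with the full replicate lists (exact p = 0.0316) and 0.945 against one-strand summits upstream of their TSS (adjusted exact p = 0.488), so neither its direction nor its call held across these settings. Against one-strand summits downstream of their TSS, 43.5% of which were matched in all 3, the odds ratio was 1.85 (adjusted exact p = 1.92e-06).

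The signal of the pooled list bears on this. In 5 equal bins of all optimal peaks by pooled signal, members made up 24.5, 22.6, 15.2, 14.7 and 11.7% from the strongest bin to the weakest. Members were matched in all 3 replicates less often than one-strand peaks of the same bin in bin 2 (72.5% against 85.2%, Fisher's exact test adjusted over the 5 bins, p = 3.77e-04) and bin 3 (47.7% against 66.0%, p = 2.85e-04). In the strongest bin the shares were 94.4% and 96.4%, in bin 4 28.7% and 29.3% and in the weakest 9.56% and 7.21%, and none of these 3 differences passed the threshold. The bins were added after the first results were seen. The pooled signal comes from the same 3 libraries as the matches, and members were matched most often in replicate 2. These tests therefore cannot tell a difference in support from that difference between libraries.

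**Figure D4:**
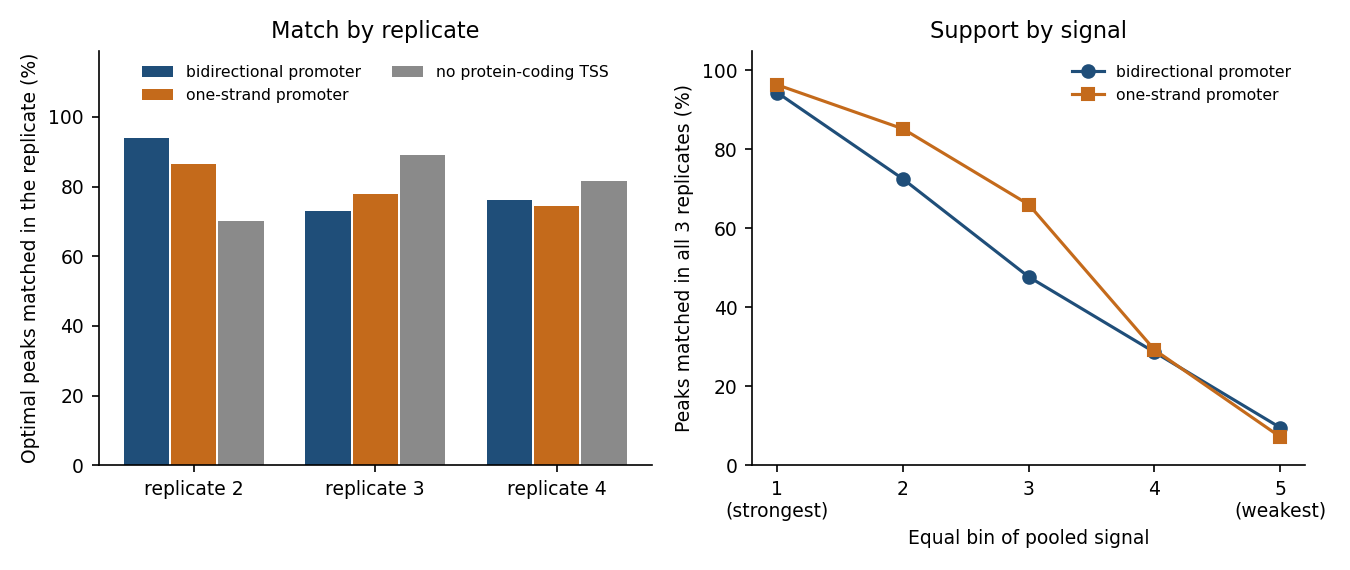
Left, percentage of optimal peaks (y axis) matched among the 5806 strongest peaks of each replicate (x axis), for bidirectional promoter, one-strand promoter and other peaks. Right, percentage of peaks matched in all 3 replicates (y axis) by 5 equal bins of pooled signal (x axis); the classes stand furthest apart in bins 2 and 3, with 72.5% against 85.2% and 47.7% against 66.0%.

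Among the 605 members matched in every replicate, the coefficient of variation of the relative signal had a median of 24.7% (quartiles 15.1 and 33.2). The highest of the 3 values was in replicate 2 for 329 members, in replicate 3 for 55 and in replicate 4 for 221. The steadiest were cm, an AP-3 adaptor subunit gene, with sloth1 (2.33, 2.33 and 2.36) and the initiation factor gene eIF3m with CG8323 (1.06, 1.06 and 1.10). The most variable were 1 of the 2 summits at CG6550 and Mtap, a methionine salvage gene (3.32, 1.17 and 0.662), and CG13384 with Dad1, an oligosaccharyltransferase subunit gene (4.48, 1.83 and 1.12), both highest in replicate 2. The other summit at CG6550 and Mtap had 3.32, 1.06 and 1.75, and the 2 summits overlapped the same peak of replicate 2. The spread at the named summit thus sets a shared peak against different ones in replicates 3 and 4.

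The windows of 201 bp centred on the summits were searched for 12 short motifs on both strands. Of these, 9 (75%) differed between members and one-strand promoter summits at an adjusted p under 0.05 (2-sided Fisher's exact tests, Benjamini-Hochberg over the 12), 7 of them being more frequent in members. These tests treat summits as independent and do not measure the spread between replicates, which is given beside them. The median GC content of the windows was 35.3% for members and 37.8% for one-strand summits, and its part in the AT-rich motifs was not tested.

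The DRE, TATCGATA, was in 128 members (12.4%), against 127 one-strand promoter windows (6.55%) and 4.63% of all optimal windows. The odds ratio was 2.03 (adjusted p = 3.21e-07, Fisher's exact test), and the replicates gave 11.2% ± 1.25 in members, against 6.03% ± 1.11 (SD, n = 3). CTATCGA, which overlaps it, was in 17.7% of members, against 9.18% (odds ratio 2.12, adjusted exact p = 1.59e-10), and CGATA, the BEAF-32 core that lies within TATCGATA, in 49.8%, against 35.9% (1.77, adjusted exact p = 3.13e-12). CATCNCTA, a form of the core promoter element Motif 7, was in 10.8%, against 5.31% (2.15, adjusted exact p = 2.77e-07). In these 4 motifs, all of the kind known from housekeeping promoters, every replicate's share in members was above every replicate's share in one-strand summits. The same held for the E-box, the TATA-like motif and the homeodomain core described below, and narrowly for the NFI arm. This separation was thus not particular to housekeeping motifs. It did not hold for Motif 1, with 4.05% of members in replicate 3 against 4.23% of one-strand summits in replicate 2.

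GGTCACACT, Motif 1, was in 55 members (5.34%), against 3.81% of one-strand windows and 2.34% of all optimal windows, and the difference was not past the threshold (odds ratio 1.42, adjusted p = 0.0701, Fisher's exact test). It passed with other settings, given in the closing section, and turned round when the TSS limit was 250 bp. Only 4 members held both TATCGATA and GGTCACACT, while 179 (17.4%) held either, against 193 one-strand windows (9.95%).

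The E-box CAGCTG was in 17.6% of members, against 13.0% (odds ratio 1.42, adjusted exact p = 0.00157), the TATA-like TATAAA in 38.6%, against 31.2% (1.39, adjusted p = 9.22e-05), and the homeodomain core TAATTA in 21.2%, against 13.9% (1.66, adjusted p = 1.42e-06). The E-box difference turned round in windows of 50 bp to each side (odds ratio 0.978), and its call was lost with a TSS limit of 250 bp (1.25, adjusted exact p = 0.0899) and with the 5′ end of each gene as its TSS (1.28, adjusted exact p = 0.0511). TCAGTT, an initiator form, was less frequent in members (10.4%, against 13.4%; odds ratio 0.749, adjusted exact p = 0.0254), a call that was lost in 7 of 11 alternative settings. The NFI arm TTGGCA was in 15.7% of members, against 13.5%, and did not pass the threshold (odds ratio 1.20, adjusted exact p = 0.120). It passed with 1 summit per pair (1.25, adjusted exact p = 0.0474) and in windows of 200 bp to each side (1.28, adjusted exact p = 0.00531). The full palindrome, TTGGC and GCCAA 5 bases apart, was in 0 of 1030 member windows, where the exact 95% interval reaches 0.358%, against 1 of 1940 one-strand windows.

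The sharpest difference was in GAGAGAG, a site of the type bound by GAGA factor at developmental promoters. It was in 9 of 1030 members (0.874%, exact 95% interval 0.40 to 1.65), against 112 of 1940 one-strand summits (5.77%, 4.78 to 6.91), an odds ratio of 0.144 (adjusted p = 8.63e-12, Fisher's exact test). All optimal windows stood between the 2 classes, at 3.74%. The replicates gave 0.988% ± 0.212, against 6.53% ± 0.777 (SD, n = 3). Against one-strand summits upstream of their TSS, with 5.83%, the odds ratio was 0.142. The 9 members were at Acbp1 and Piezo, a mechanosensitive channel gene (relative signal 5.17, 3.90 and 2.43), at ntc, IntS10 and CG32264 (2.37, 0.965 and 1.59), and at CG17816 and ArgRS-m, Sgf11 and CG32202, CG17625 and Gclm, retm and frj, CG12744 and peo, CG1998 and Set2, and Bacc and Pgk. In 4 of the 9 pairs the peak was matched in every replicate.

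**Figure D5:**
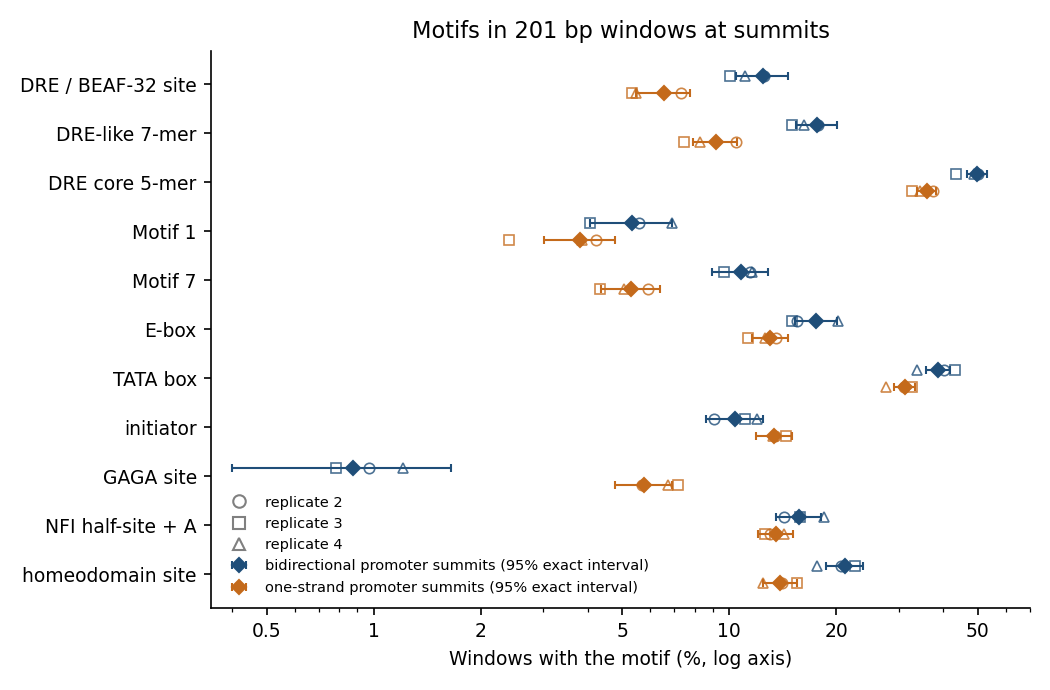
Percentage of 201 bp windows with each motif (x axis, log scale) at bidirectional and one-strand promoter summits; diamonds are the optimal list with exact 95% intervals, open symbols the 3 replicates. The GAGA site stands apart with 0.874% against 5.77%, while the DRE (12.4% against 6.55%) and Motif 7 (10.8% against 5.31%) are more frequent at bidirectional promoters; the NFI palindrome, seen once among the one-strand windows, is not drawn.

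The same motifs were then counted at annotated promoters with and without a summit, in 201 bp windows at the midpoint of each divergent pair, a comparison chosen after the first results were seen. A pair counted as having a summit only where 1 lay within 500 bp of both TSSs. Pairs with a summit near 1 TSS alone counted as without. Of the paired genes, 2292 had a summit within 500 bp and 1983 a member summit. Wide gaps leave less room under the rule. Only 76 of 356 pairs with gaps of 501 to 700 bp and 6 of 306 with 701 to 1000 bp had a summit. The part of gap width in these shares was not tested. Of the pairs with a summit 10.3% held TATCGATA, against 7.49% of pairs without (odds ratio 1.42, adjusted p = 0.0346, Fisher's exact test over 1000 and 1615 pairs). CATCNCTA was in 7.40%, against 4.09% (1.88, adjusted exact p = 0.00197), while GGTCACACT was in 4.40%, against 4.33%. TCAGTT was in 10.3%, against 16.2% (0.593, adjusted exact p = 2.02e-04). CTATCGA (13.9%, against 9.47%, adjusted exact p = 0.00221) and TAATTA (24.6%, against 20.7%, adjusted exact p = 0.0367) passed the threshold. CGATA (43.1%, against 39.9%, adjusted exact p = 0.167) and CAGCTG (13.4%, against 12.2%, adjusted exact p = 0.476) did not pass the threshold. Unpaired genes with a summit differed from those without in the same direction, with 7.77% against 4.12% for TATCGATA, 4.15% against 2.19% for CATCNCTA and 12.1% against 17.1% for TCAGTT, so these directions are not particular to bidirectional promoters. GGTCACACT, with near-equal shares at the pairs, was in 3.55% of unpaired genes with a summit, against 1.17% of those without.

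GAGAGAG was in 1.20% of occupied divergent pairs, against 2.97% of unoccupied ones (odds ratio 0.397, adjusted exact p = 0.00869). At unpaired genes the order was the opposite, with 9.92% of the genes with a summit and 5.29% of those without (odds ratio 1.97, exact p = 7.05e-10, windows centred 100 bp upstream of the TSS). The ratio of the odds ratios was 0.201 (95% large-sample interval 0.103 to 0.393; Zelen's exact test of equal odds ratios, 2-sided, p = 3.78e-07), so the 2 odds ratios differed. This test was also chosen after the data were seen, and was run for GAGAGAG alone. It does not separate the motif from gap width or from pairs with a summit near 1 TSS alone. Both enter only the odds ratio of the pairs. TATAAA also went in opposite directions, with 42.7% against 38.1% of divergent pairs (adjusted exact p = 0.0367) and 32.1% against 36.9% of unpaired genes. So did TTGGCA, with 14.2% against 12.9% of pairs (adjusted exact p = 0.460) and 14.0% against 15.1% of unpaired genes.

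Among the members, TATCGATA stood a median of 48.5 bp from the summit and the summit of these members was in the gap in 104 of 128 cases (81.2%), against 82.6% of all divergent members. For GGTCACACT the summit was in the gap in 31 of 54 divergent members (57.4%). Neither motif went with the strongest peaks. The median relative signal was 1.35, 0.855 and 0.868 in replicates 2, 3 and 4 for members with TATCGATA, against 1.53, 1.00 and 1.11 without it. With GGTCACACT it was 0.985, 0.732 and 0.788, against 1.54, 0.981 and 1.09 without it, lower in 3 of 3 replicates for each motif. In 5 equal bins of members from strongest to weakest, the share with GGTCACACT was 1.46, 3.40, 4.85, 7.77 and 9.22%.

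The genes at these summits were grouped by function from their symbols, beside the 38.6% of all 5141 paired genes that had a member summit. The lists are described by counts only. Of the 73 genes of the mitochondrial ribosome 58 were in a pair, and 32 of these (55.2%, exact 95% interval 41.5 to 68.3) had a member summit. The strongest were the mRpS10, mRpS23 and mRpL23 summits named above, while mRpL1, paired with CG9626, and mRpL15, paired with the DNA repair gene CtIP, had no summit. Of the 93 cytosolic ribosomal protein genes 56 were in a pair and 32 (57.1%) had a member summit. After RpS27, the strongest were RpL7 with Ripalpha (5.86, 6.58 and 11.1) and RpL14 with Nelf-E, a pausing factor subunit gene (5.08, 5.69 and 8.21). Ribosomal protein genes outside pairs were also bound, 28 of 37, beside 1351 of all 8804 genes outside pairs (15.3%).

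Vesicle traffic genes had a member summit in 27 of 39 paired genes (69.2%, 52.4 to 83.0), the highest share of the 11 lists. Beside CHMP2B these included Vps33B with the protease gene Fur1 (4.83, 3.88 and 4.17) and Sec61alpha, the translocon channel, with Daxx (1.89, 1.91 and 2.13), while Cog2 and Cog4 had none. Aminoacyl-tRNA synthetases had 13 of 23 (56.5%), led by SerRS with CG17260 (3.94, 2.59 and 3.39). Mediator, TFIID and RNA polymerase subunits had 27 of 56 (48.2%), led by MED30 with the translesion DNA polymerase gene Rev1 (4.17, 2.83 and 3.33), while MED1 and MED15 had none. Respiratory chain genes had 21 of 44 (47.7%), among them ND-ASHI with Fum1, a fumarase gene (3.48, 3.58 and 4.49), while ATPsynD had none.

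Shares near or below the background were found for DNA replication and repair (8 of 18, 44.4%), the nuclear pore (8 of 19, 42.1%), the proteasome (9 of 26, 34.6%) and translation initiation (7 of 21, 33.3%). The replication genes Mcm2 and RPA1 share 1 promoter and 1 summit (2.09, 1.46 and 2.35), and the proteasome gene Rpn3 had 1.74, 2.11 and 1.42. The translational repressor gene eIF4EHP stood out in its list at 12.5, 7.53 and 4.67. Of 27 developmental regulators only twi was in a pair, and it had no member summit. For most of these lists the interval contains 38.6%, the exceptions being the mitochondrial and cytosolic ribosome and vesicle traffic, and no test of the lists was made.

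Below the threshold of the optimal list the class made up a smaller share. The pooled list holds background as well as peaks, and 9014 of its 30000 entries had a q-value of 0.01 or lower. Of its 24193 further entries, 684 (2.83%, exact 95% interval 2.62 to 3.04) met the rule, a density of 2.26 times the even spread, and they added 487 gene pairs. That share was thus taken over background and peaks together. With the lists of peaks at a q-value of 0.01 or lower, 13.8, 11.3 and 14.9% of summits in replicates 2, 3 and 4 were at bidirectional promoters, from 13037, 8464 and 5138 peaks.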

How the data were processed

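ChIP-seq peak lists of 3 replicates (numbers 2, 3 and 4), a pooled list and an optimal list were used, on dm6 per the deposited listings. A replicate list came from 1 alignment and a control shared by the replicates, and the optimal list from the replicate and pooled lists by the irreproducible discovery rate, per the deposited listings. The sources used here name neither aligner nor peak caller. The deposited signal is the value of the authors' caller on an unstated scale, and the deposited −log10 q-value was used for 1 alternative. The deposited summit offset, a position in bp with no other unit, gave the summit. No read counts were used and depth is unknown, so exact (Clopper-Pearson) 95% intervals cover the counting of peaks. The list of each replicate was cut to its 5806 strongest peaks, and an overlap of 1 bp counted as a match. No rows were shared between replicate lists.

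TSSs of protein-coding genes came from Ensembl release 115 (BDGP6 version 6.54), and sequence from RefSeq Release 6, which have dm6 coordinates. Motif and support shares were compared with 2-sided Fisher's exact tests, and medians of relative signal with an exact sign-flip permutation over replicates. Python 3.11.15, NumPy 2.4.6, SciPy 1.17.1 and Matplotlib 3.10.9 were used. The member rule, motif search and Fisher's tests were tested on simulated positions and windows.

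The members and lists were chosen with earlier results of these data known. Named were the 15 strongest members, the 3 strongest genes and up to 2 without a summit per list, the members and non-members nearest the limit, the pairs at both ends of the replicate spread and the strongest stretches with or without a motif. The 9 members with GAGAGAG were named after their values were seen. From the lists, 7 symbols sharing only a prefix were removed after the lists were seen. Alternatives were other TSS limits, TSS definitions, windows, match rules and list lengths, 1 summit per pair, divergent pairs only, upstream one-strand summits only, and leaving out each replicate, which kept the optimal peaks matched in both others.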

Additional observations from a re-analysis of the deposited data

How the results depend on the processing

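The summit share at bidirectional promoters was 10.8% with a TSS limit of 250 bp and 22.6% with 1000 bp, against 17.7% with 500 bp. The share of divergent members with the summit in the gap was 80.8% with a limit of 1000 bp and 78.7% with the 5′ end of each gene as its only TSS. Occupied pairs made up 23.6 to 27.6% when a replicate was left out, since fewer optimal peaks remained. The odds ratio for a match in all replicates was 1.24 with a limit of 250 bp (exact p = 0.0223), 0.799 with the full replicate lists (exact p = 0.0316), 0.945 against upstream one-strand summits, and ran from 0.882 to 1.41 when a replicate was left out; the cause was not tested. The odds ratio of GGTCACACT was 0.960 with a limit of 250 bp and that of CAGCTG 0.978 in windows of 50 bp to each side; the cause was not tested. GGTCACACT passed the threshold with a limit of 1000 bp (1.62, adjusted p = 0.00973), with 1 summit per pair (1.501, adjusted p = 0.0329), with windows of 200 bp to each side (2.21, adjusted p = 1.91e-08) and against upstream one-strand summits (1.62, adjusted p = 0.0208), all by Fisher's exact test. TTGGCA passed with 1 summit per pair (1.25) and with windows of 200 bp to each side (1.28), and the E-box call was lost with a limit of 250 bp (1.25) and with 5′ ends (1.28). The DRE, the overlapping 7-mer CTATCGA, the core CGATA, Motif 7, the TATA-like motif, the GAGA site and the homeodomain core kept their direction and call in all 11 alternatives, with odds ratios of 1.60 to 2.92 for the DRE and 0.107 to 0.243 for the GAGA site. The number of motifs past the threshold stayed between 7 and 11. No paired analysis was possible because the series has only 1 group and thus no samples to pair across groups; classes of summits were compared within each replicate.

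The unknown read depth limits what weak peaks can show, and summits of 1 pair, or of neighbouring pairs, are not independent. The optimal list drew on every replicate, also where a replicate was left out. Tests between classes of summits do not measure the spread between embryo collections.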
